A study of Mus musculus with 38 samples.

Results

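PL-Ribo-seq was used to sequence ribosome footprints that a streptavidin pulldown recovered from depolarized cortical neurons carrying Pan-TurboID, and to set them against the input of the same cultures. TurboID is a biotin ligase that tags proteins close to it, and Pan-TurboID carries no localization signal. The libraries were chosen by their titles, 3 pulldowns (DEP_Pan_pd) and 3 inputs (DEP_Pan_in), which makes 6 of the 38 libraries of the series. The neurons were cultured from the cortex of CD-1 mouse embryos and received the ligase by a doxycycline-inducible lentivirus, whose promoter is not restricted to a cell type. They were silenced for 2 h with tetrodotoxin and DL-AP5, depolarized for 1 h with 55 mM KCl and harvested after a 30 min recovery. Biotin was given for 30 min, after 2 min of cycloheximide, which holds ribosomes in place. Each replicate combined 4 culture dishes, 10% of its monosome fraction became the input and the remainder went to the streptavidin beads, so input and pulldown of a number share a culture. Resting Pan-TurboID cultures (3 inputs, 3 pulldowns) received cycloheximide and biotin without KCl, and no silencing or recovery step is recorded for them. Against rest, silencing, KCl and recovery therefore cannot be told apart. Depolarized TurboID-PSD95 cultures (3 inputs, 3 pulldowns) had the KCl treatment but a ligase joined to elements of the postsynaptic scaffold PSD95. Both serve below only to show where the depolarized Pan-TurboID libraries differed.

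A footprint is the stretch of mRNA that a ribosome shields from nuclease, and its position reports which codon the ribosome occupied. The small ribosomal subunit loads at the cap and scans the 5′ untranslated region (5′UTR). The whole ribosome forms at a start codon and traverses the coding sequence (CDS) while the nascent protein grows. Some start codons lie within the 5′UTR. Streptavidin retains a monosome when the ribosome, its nascent chain or a bound partner carries biotin, which TurboID attaches mainly to lysines. In neurons, KCl opens voltage-gated calcium channels and induces the immediate early genes.

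The 6 files held 9785628 to 35643247 counted footprints each, of which 2106398 to 13509594 lay in the CDS of the transcripts used. Replicate 1 stood apart. Its CDS footprints made up 12.5% of the input library and 15.0% of the pulldown library, against 37.9% to 40.2% in the other 4 libraries. Replicate 1 also had the lowest share of its group in resting Pan-TurboID (25.7% of input, 34.8% of pulldown) and depolarized TurboID-PSD95 (24.8% and 16.6%). The total counts of called genes are given with and without replicate 1. Without replicate 1, 11 named genes lost their call and 3 list medians moved by at least the SD of their pair medians. These are not marked singly below. Activity genes followed the KCl label. Arc, which encodes a cytoskeletal regulator of synapses, was at 112, 132 and 106 CPM (counts scaled to a common CDS library size by the TMM method) in the inputs of replicates 1, 2 and 3, against 5.75 to 14.6 CPM in the resting Pan-TurboID inputs. Fos, a transcription factor, was at 2331, 2133 and 2542 CPM against 170 to 298 CPM. Between such bulk inputs, fewer cells of a type and less RNA per cell cannot be told apart. Neuronal identity was also visible, with Map2 at 3501 to 7259 CPM in the inputs, whereas the 8 microglial markers summed to 1.65 to 4.12 CPM and markers of progenitors, astrocytes and the oligodendrocyte lineage were present (276 to 435, 773 to 1315 and 177 to 414.5 CPM in sum), although Mog of the last list had no count in any of the 6 libraries.

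Which mRNAs were over- or underrepresented among the recovered ribosomes was asked first. CDS footprints of 13003 genes were tested as pulldown over input within each culture. In the pulldown, 2123 genes were higher (16.3% of those tested) and 2029 were lower (15.6%), 31.9% in all (edgeR quasi-likelihood test, FDR below 0.05). Among them, 2097 of the higher and 2013 of the lower genes moved in the same direction in all 3 cultures. The median log2 fold change was 0.76 over the higher genes and -0.84 over the lower genes, and 518 and 671 genes, respectively, changed more than 2-fold. Without replicate 1, the test called 1601 higher and 1168 lower genes, of which 1534 and 1120 were already among the calls of the full set.

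The higher genes with the smallest p-values, picked among those that rose in all 3 pairs, were dominated by very large proteins. Pi4ka, a lipid kinase that makes phosphatidylinositol 4-phosphate (CDS on mm10 chromosome 16, 17280569 to 17389439), stood at 308, 143 and 117 CPM in inputs 1, 2 and 3 and at 694, 338 and 345 CPM in the pulldowns, a 2.50-fold rise (log2 fold change 1.32 ± 0.12 SE, edgeR FDR = 1.3e-07). The groups did not overlap, although replicate 1 was about as high in its input as replicates 2 and 3 were in their pulldowns. Huwe1, a giant ubiquitin ligase (chromosome X, 151835248 to 151934383), was at 787, 409 and 236 CPM in the inputs and 1605, 1040 and 647 CPM in the pulldowns. Here the levels of the groups overlapped while each pair rose, by 2.42-fold (log2 1.28 ± 0.12). The ubiquitin ligase Ubr4 rose by log2 1.28 ± 0.12, and Wdfy3, a scaffold of selective autophagy, rose by 1.48 ± 0.14. Abca3, a lipid transporter of the ABC family, rose by 1.41 ± 0.13, Fry by 1.44 ± 0.14 and 4932438A13Rik by 1.42 ± 0.13. Anapc1, a subunit of the anaphase-promoting complex, rose by 1.38 ± 0.13 and Ints1, the large Integrator subunit, by 1.26 ± 0.12. Stt3a was the exception in size with a CDS of 2118 nt. It encodes the catalytic subunit of an oligosaccharyltransferase in the endoplasmic reticulum membrane, was at 312, 173 and 117 CPM in the inputs and 695, 398 and 332 CPM in the pulldowns, and rose 2.44-fold.

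The 9 lower genes named here by the same rule encoded mostly histones. Hist1h2ao, Hist1h2ah, Hist1h2ai (H2A), Hist1h2bb, Hist2h2bb (H2B) and Hist1h1b (a linker histone) fell by 1.36 to 2.11 on the log2 scale. These genes have near-identical copies whose reads the counting could split, so their single values are uncertain. Somatostatin (Sst, chromosome 16, 23889729 to 23890744), the peptide of a class of interneurons, was at 1171, 1268 and 1400 CPM in the inputs and 571, 606 and 544 CPM in the pulldowns. The groups lay far apart with little spread, and the fall was 2.23-fold (log2 -1.16 ± 0.13, edgeR FDR = 9.8e-07). With the trend over CDS length removed, described below, Sst was at -0.30 ± 0.14 and did not pass the test (edgeR FDR = 0.12). Vim, an intermediate filament of progenitors and glia, fell from 224, 597 and 927 CPM to 110, 267 and 403 CPM. Apoe, a lipid carrier made mainly by glia, fell from 211, 591 and 453 CPM to 71.6, 197 and 138 CPM, a log2 fold change of -1.62 ± 0.18. For Vim and Apoe, replicate 1 was the lowest of both fractions, and each culture showed the fall, as the naming rule required.

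**Figure D1:**
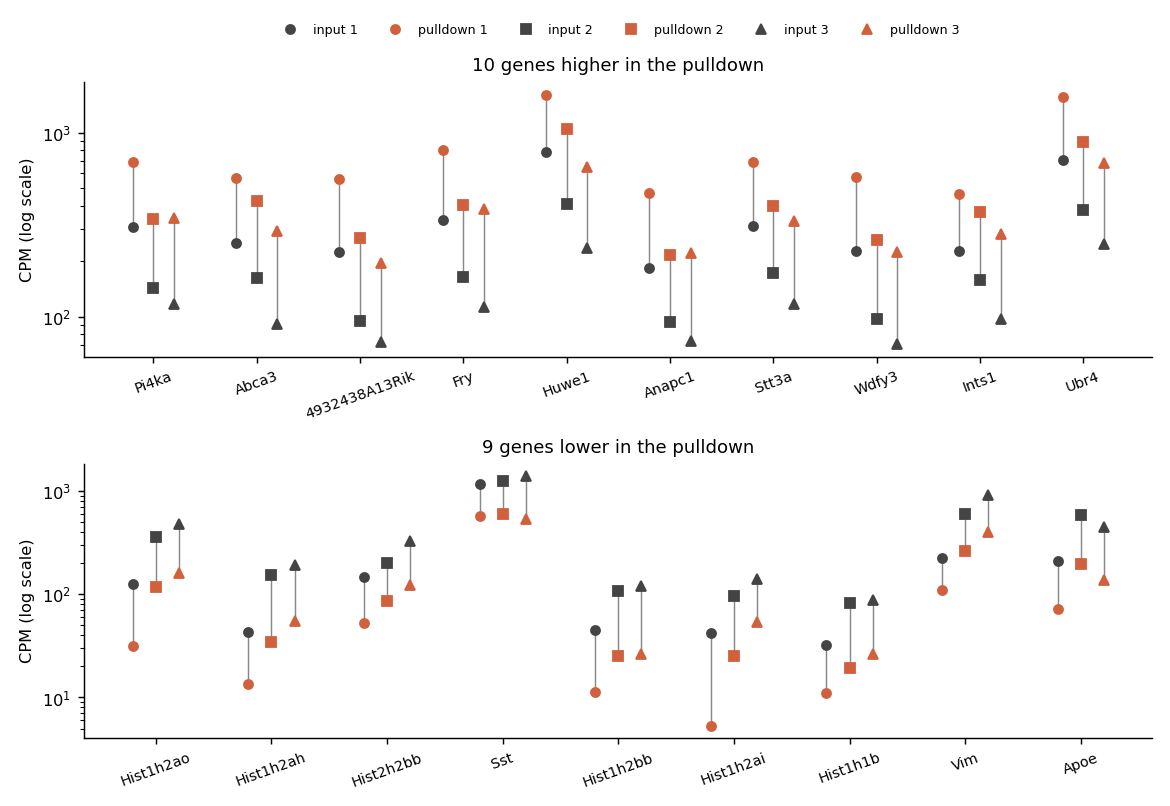
Levels in CPM (log axis) of the 10 higher and 9 lower genes named by smallest p-value, by library; grey symbols are inputs, orange symbols pulldowns, and a line joins the 2 fractions of a culture. By that choice all pairs of the upper panel rise, as for Pi4ka from 308 to 694 CPM in replicate 1. All pairs of the lower panel fall, as for Sst from 1171 to 571 CPM.

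CDS length ordered these changes. In the decile of genes with the shortest CDS (20 to 480 nt), 48.5% of 1301 genes were lower and 0.922% higher, and the median log2 fold change was -0.91. In the decile with the longest CDS (3561 nt and more), 42.9% were higher and 2.46% lower, and the median was 0.50. The medians rose in every step between them. Each culture showed the same order, with medians of -1.17, -0.78 and -0.72 in the shortest decile and 0.48, 0.47 and 0.50 in the longest for replicates 1, 2 and 3. Across genes, Spearman's rho of the log2 fold change with CDS length was 0.523 (n = 13003 genes, which are not independent replicates). The relation was weaker for the 5′UTR length (rho 0.18) and the 3′UTR length (0.084). It was also weak for the GC content of the CDS (-0.114) and its share of lysine codons (-0.119), both over 12791 genes with a sequence. The number of lysine codons per CDS was not set against the fold change. The higher genes had a median CDS of 2445 nt with 5.21% lysine codons and the lower genes 696 nt with 6.3%.

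**Figure D2:**
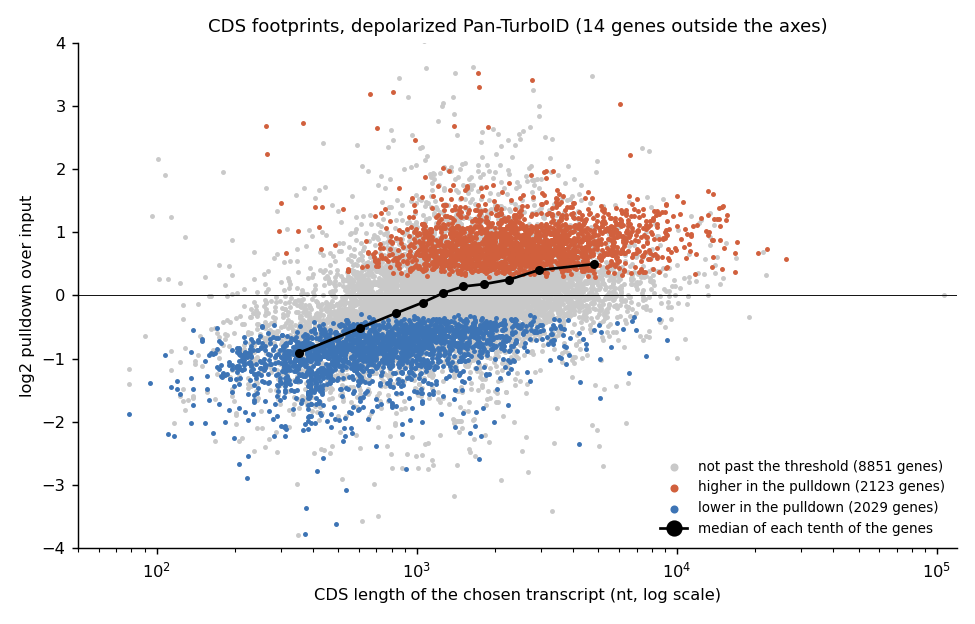
Log2 pulldown over input of CDS footprints (vertical axis) against CDS length in nt (horizontal log axis), 1 point per gene, with 14 genes outside the axes; orange, blue and grey mark higher, lower and uncalled genes, and black points are medians of gene deciles. The medians climb from -0.91 to 0.50.

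With the length trend taken out of the fit, 1418 genes were higher and 1363 lower, and 1183 and 913 of the calls above kept their direction and call. For 2 of the higher and 5 of the lower genes the call turned to the opposite direction. The genes that then led were chosen after their values were seen. On the higher side, by order of p, they were Snhg11, Ap2m1, Slc16a1, Plppr3, Stt3a, Kdelr1, Slc2a3 and Kcnk9. Slc16a1 is a monocarboxylate transporter (log2 1.46 ± 0.15 after the length trend was removed and 1.54 before), Slc2a3 the neuronal glucose transporter (0.95 ± 0.10) and Kcnk9 a potassium leak channel (1.30 ± 0.15). Kdelr1, the receptor that returns proteins to the endoplasmic reticulum, has a CDS of only 639 nt and was at 1.33 ± 0.15, against 0.86 before. Snhg11, a small nucleolar RNA host gene with an annotated CDS of 264 nt, was at 3.60 ± 0.30. On the lower side stood Notch1, Ctnna1, Vim, Ptprz1, Palld, Mn1 and Apoe. Notch1, a receptor that maintains progenitors, was at -1.52 ± 0.15 despite a CDS of 7596 nt, and Ptprz1, a receptor phosphatase of progenitors and glia, at -1.08 ± 0.12. Ctnna1, which links cadherins to actin, was at -1.65 ± 0.18 and Palld, an actin-binding scaffold, at -1.79 ± 0.20. Of the called genes named in the text, the following no longer passed the test without the trend. On the higher side these were Tnik, Shank2, Unc13a, Pclo, Rimbp2, Ank3, Kif1a, Kif1b, Map1a, Map1b, Eif3a and Hk1, and on the lower side Sst, Psmb1, Eif1ax, Eif5a, Ndufa4, Cfl1, Pfn1, Ddit4 and Neurod6.

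Most of the listed receptors and channels of the neuronal membrane were higher. Of 21 glutamate receptor genes, 15 rose, none fell and 6 did not pass the test. The shares over all genes, 16.3% higher and 15.6% lower, are the comparison here and for the list counts below. Counts with the length trend removed have another background, 1418 higher and 1363 lower of the 13003 genes tested. The list's median was 0.65 against -0.01 over all tested genes. Gria2, the AMPA receptor subunit that limits calcium entry, was at 911, 385 and 298 CPM in the inputs and 1646, 809 and 658 CPM in the pulldowns. Its levels overlapped between fractions because replicate 1 was high in both, yet each pair rose, by 1.02 ± 0.11 (edgeR FDR = 2.5e-07). Gria3 and Gria4 rose by 0.95 ± 0.14 and 0.84 ± 0.14, and Grin1, the obligatory NMDA receptor subunit, by 0.65 ± 0.12. Voltage-gated channels moved further, with 17 of 20 higher, none lower and a median of 1.03. The calcium channels Cacna1e and Cacna1b rose by 1.26 ± 0.16 and 0.96 ± 0.12 and the sodium channels Scn2a and Scn3a by 0.99 ± 0.12 and 1.03 ± 0.13. After removal of the length trend, 8 glutamate receptor genes were higher, 7 of them among the 15, as were 13 of the 17 channel genes, and no member of either list was lower.

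Among 23 scaffolds of the postsynaptic density, 5 rose, 1 fell and 17 did not pass the test, which is no more than the 31.9% called over all genes. Kalrn, an exchange factor of spines, rose by 1.41 ± 0.20, Shank2 by 0.69 ± 0.16 and the kinase Tnik by 0.63 ± 0.13, whereas Dlgap4 fell by 0.56 ± 0.13 on the log2 scale. With the length trend removed the list had 2 higher and 4 lower members. Dlg4, which encodes PSD95, was at 17.0, 30.5 and 26.4 CPM in the inputs and 17.7, 27.6 and 22.8 CPM in the pulldowns and did not pass the test (log2 -0.13 ± 0.29). Of 14 active zone scaffolds 5 rose and 1 fell, against 16.3% higher and 15.6% lower over all genes. The higher ones included the priming factors Unc13a (0.72 ± 0.11) and Unc13b (1.66 ± 0.27), Rimbp2 (0.59 ± 0.14) and the giant scaffold Pclo (0.76 ± 0.12). This list turned after the length trend was removed, with 1 higher and 7 lower. Among 23 synaptic vesicle and SNARE genes, 10 rose and 7 fell, and with the length trend removed 11 were higher and 3 lower. The multipass vesicle proteins Sv2a and Sv2b rose by 1.10 ± 0.13 and 1.14 ± 0.14 and the glutamate transporter Slc17a6 by 1.10 ± 0.17. Cplx1, a small soluble SNARE clamp, was at 136, 139 and 204 CPM in the inputs and 51.7, 66.9 and 70.0 CPM in the pulldowns, a fall of 1.32 ± 0.18.

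All 11 giant ubiquitin ligases were higher, with log2 fold changes of 0.67 to 1.39 and Herc2 and Herc1 at 1.39 ± 0.13 and 1.21 ± 0.12. Without the length trend 6 of them stayed higher. Of 17 microtubule motor genes, 11 rose and 1 fell. Dync1h1, the dynein heavy chain, was at 1237, 1053 and 706 CPM in the inputs and 2841, 2406 and 1661 CPM in the pulldowns, with no overlap, and rose by 1.21 ± 0.13. Kif1a and Kif1b, kinesins of axonal cargo, rose by 0.56 ± 0.12 and 0.65 ± 0.12, whereas Dctn2, a dynactin subunit, fell by 0.71 ± 0.14. Without the length trend, 2 motors were higher and 3 lower. Spectrins and ankyrins gave 4 higher of 7, and 1 higher and 2 lower without the length trend, led by Sptbn4 (0.92 ± 0.14) and Ank3 (0.51 ± 0.13). Ank2 (0.34 ± 0.11) changed sign when the length trend was removed and was then called lower (-0.32 ± 0.10, edgeR FDR = 0.025).

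Microtubule-associated proteins and actin genes went both ways. Map1b, one of the most abundant mRNAs, was at 13560, 8791 and 6617 CPM in the inputs and 20810, 12944 and 11148 CPM in the pulldowns and rose by 0.64 ± 0.11. Map1a rose by 0.91 ± 0.16. Mapt, which encodes tau, fell from 2789, 1830 and 1706 CPM to 1129, 1160 and 1157 CPM, and Map4 fell by 0.70 ± 0.14, so 2 of 12 members were higher and 3 lower, near the shares over all genes (16.3% and 15.6%). With the length trend removed none was higher and 6 were lower, and Map1b and Map1a did not pass (0.09 ± 0.11 and 0.31 ± 0.14). Map2 did not pass the test with the trend included (-0.05 ± 0.12) and was among these 6 lower genes without it (-0.53 ± 0.12). Of 16 tubulin and actin genes, 6 rose and 4 fell, and 5 were higher and 1 lower without the length trend. Actb, beta-actin, was at 6552, 7911 and 6926 CPM in the inputs and 4994, 5544 and 4893 CPM in the pulldowns, a fall of 0.47 ± 0.10. The small actin regulators Cfl1 and Pfn1 fell by 0.89 ± 0.13 and 0.99 ± 0.17, calls that were lost without the length trend (-0.23 and -0.24), and Actr3, of the Arp2/3 complex, rose by 0.72 ± 0.15.

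In the vesicle coats, 7 of 21 rose and 4 fell, which turned to 3 higher and 7 lower with the length trend removed. Ap2m1, the medium subunit of the endocytic adaptor, was at 247, 160 and 173 CPM in the inputs and 590, 396 and 404 CPM in the pulldowns, a rise of 1.26 ± 0.13, and the clathrin light chain Cltb fell by 1.15 ± 0.15. The coatomer subunits Copa and Copg1 rose by 0.93 ± 0.13 and 0.88 ± 0.12. The 19S particle of the proteasome had 2 higher and 8 lower of 18, against 16.3% and 15.6% over all genes. Without the length trend it had 2 higher and 7 lower. Psmc5, an ATPase subunit, was at 148, 146 and 120 CPM in the inputs and 288, 273 and 343 CPM in the pulldowns. Psmd8 (-0.94 ± 0.18), Psmd6 (-0.63 ± 0.14) and Psmd4 (-0.59 ± 0.13) were among the lower. The 20S core had 1 higher (Psma5, 0.62 ± 0.19) and 4 lower of 14, led by Psmb1 (-0.75 ± 0.14). After removal of the length trend that split was 6 higher and none lower. The chaperonin TRiC had 2 of 8 higher, Cct3 (0.68 ± 0.12) and Tcp1 (0.49 ± 0.11). The called shares of TRiC and the 20S core were below and near the 31.9% over all genes. Heat shock chaperones had 3 higher and 7 lower of 18, against 16.3% and 15.6% over all genes. The co-chaperones Dnaja1 (-1.13 ± 0.17) and Dnajb1 (-0.81 ± 0.15) were among the lower, and the list had 0 higher and 9 lower without the length trend.

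Of 79 cytosolic ribosomal protein genes tested, from 80 listed, 62 fell and none rose, with a median log2 fold change of -0.93. Rps9 fell from 257, 312 and 545 CPM to 82.5, 155 and 271 CPM, and Rplp1 from 84.0, 118 and 125 CPM to 32.2, 43.4 and 59.1 CPM. The summed level of the list was 6415, 7789 and 12030 CPM in inputs 1, 2 and 3 and 3038, 4455 and 6779 CPM in the pulldowns. Their CDS is short (median 432 nt), and with the length trend removed 20 were lower and 1 higher. Of 31 initiation factors, 15 fell and 5 rose, Eif3a and Eif3l among the latter (0.61 ± 0.11 and 0.66 ± 0.13), Eif3f (-0.68 ± 0.14) and Eif1ax (-1.25 ± 0.27) among the former. With the length trend removed 12 were lower and 1 higher, Eif3l, while Eif3a did not pass (0.19 ± 0.11). Eif4g2, a non-canonical initiation factor of the eIF4G family, was at 690, 455 and 786 CPM in the inputs and 524, 413 and 594 CPM in the pulldowns. It fell by 0.31 ± 0.12 (edgeR FDR = 0.041), and by 0.62 ± 0.12 without the length trend (edgeR FDR = 0.000225). Among 10 elongation and termination factors, Eef1b2, Eif5a and Etf1 were among 4 that fell and Abce1, which recycles ribosomes, was the 1 that rose (0.83 ± 0.13). Aminoacyl-tRNA synthetases, which charge tRNAs, had 8 of 20 higher and 1 lower, and 4 higher and 1 lower without the length trend. Lars was at 335, 186 and 191 CPM in the inputs and 818, 420 and 401 CPM in the pulldowns (1.18 ± 0.12).

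Respiratory genes separated by genome of origin. Nuclear-encoded subunits of oxidative phosphorylation fell in 43 of 60 cases and rose in 4, with a median of -0.76. Their median CDS was 457 nt, and after removal of the length trend 5 were higher and 4 lower with a median of 0.00. Ndufa4 fell from 289, 317 and 375 CPM to 109, 163 and 172 CPM, whereas Sdha, the large flavoprotein of complex II, rose by 0.86 ± 0.13. By contrast, 9 of the 13 mitochondrially encoded genes rose and 1 fell, with a median of 0.61. After removal of the length trend 12 were higher and 0 lower, with a median of 0.84. The difference between the lists was not tested. mt-Nd4 was at 586, 422 and 154 CPM in the inputs and 1115, 800 and 382 CPM in the pulldowns (1.05 ± 0.13), and mt-Co1 rose by 0.89 ± 0.13. Replicate 3 was lowest in both fractions. Taken as a share of CDS footprints, the 13 genes made up 0.817%, 0.861% and 0.231% in the inputs and 1.13%, 1.17% and 0.506% in the pulldowns, higher in 3 of 3 pairs (exact paired permutation test, two-sided p = 0.25, the smallest that 3 pairs allow). These mRNAs are translated inside mitochondria by mitochondrial ribosomes.

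Biotin-dependent carboxylases carry biotin without TurboID and bind streptavidin on their own. Of the 8 genes listed for these enzymes and for the ligase that loads them, 5 rose and none fell. Acaca, acetyl-CoA carboxylase, was at 102, 70.5 and 61.7 CPM in the inputs and 354, 144 and 216 CPM in the pulldowns (1.53 ± 0.27). Pcx, pyruvate carboxylase, was at 61.8, 74.2 and 62.6 CPM in the inputs and 138, 145 and 127 CPM in the pulldowns, with tight groups far apart (1.04 ± 0.16). Pcca and Pccb, the propionyl-CoA carboxylase subunits, rose by 0.69 ± 0.18 and 0.57 ± 0.16, and only the former carries the biotin. The part of free biotinylated enzyme in the recovered footprints was not tested.

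Of 12 histone variants, 9 fell and none rose, with H3f3b, a replication-independent histone, falling from 232, 335 and 442 CPM to 65.9, 134 and 192 CPM. Of 8 high mobility group genes, 5 fell and none rose. Both lists have a short CDS (medians of 411 and 463 nt), and 4 and 2 of these genes were lower with the length trend removed. Hmgb1 fell by 1.96 ± 0.44 and Hmgb2 by 1.54 ± 0.35. Among 17 neuropeptide and granin genes, 12 fell and none rose, including Npy (-1.51 ± 0.20), Scg3 (-0.54 ± 0.12) and Chga (-0.54 ± 0.13), and 7 were lower after removal of the length trend. RNA-binding proteins of dendritic mRNA transport gave 7 lower and none higher of 20, against 15.6% lower and 16.3% higher over all genes. Caprin1, a granule protein, fell from 437, 506 and 421 CPM to 239, 305 and 328 CPM, and Ybx1 (-0.84 ± 0.17), Syncrip (-0.77 ± 0.18) and Cpeb2 (-0.54 ± 0.12) also fell. With the length trend removed, 13 of them were lower. Of 16 mRNAs known from dendrites 2 rose and 2 fell, near the shares over all genes, and 1 was higher and 5 lower with the length trend removed. Camk2a, the kinase subunit of synaptic plasticity, was at 124, 137 and 89.7 CPM in the inputs and 316, 233 and 191 CPM in the pulldowns, a rise of 1.06 ± 0.14 with no overlap.

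Of 20 immediate early genes, which neuronal activity induces, 1 rose, 2 fell and 17 did not pass the test, against 31.9% called over all genes, and the median was -0.15. With the length trend removed, 3 were higher and 4 lower. Fos was at 2331, 2133 and 2542 CPM in the inputs and 1756, 1985 and 2827 CPM in the pulldowns, and Arc at 112, 132 and 106 CPM and 99.9, 115 and 118 CPM. Both sets of levels overlapped (log2 -0.12 ± 0.14 and -0.07 ± 0.18). Dusp1, a MAP kinase phosphatase, rose by 0.58 ± 0.13, whereas Fosb and the nuclear receptor Nr4a3 fell by 0.61 ± 0.14 and 0.45 ± 0.12. In the resting Pan-TurboID cultures, with their far lower levels, none of the 20 was higher and 11 were lower, with a median of -0.52. Over all genes at rest, 15.4% were higher and 17.5% lower. In the depolarized TurboID-PSD95 cultures 1 was higher and 8 were lower, with a median of -0.39 and Fos at -0.78 ± 0.14. The shares over all genes with TurboID-PSD95 were 17.2% higher and 17.4% lower. The depolarized and resting values of Arc were -0.07 and -0.68, and no immediate early gene passed the test of either difference between experiments. Of 14 stress response genes, 2 rose, 2 fell and 10 did not pass the test, near the share called over all genes. Asns and Ppp1r15b rose by 0.57 ± 0.11 and 0.93 ± 0.18 and Atf4 and Ddit4 fell by 0.51 ± 0.12 and 0.62 ± 0.17. Glycolysis gave 5 higher and 4 lower of 16, against 16.3% and 15.6% over all genes, and 4 higher and 3 lower without the length trend. The phosphofructokinases Pfkl, Pfkm and Pfkp rose by 0.74 ± 0.12, 0.55 ± 0.11 and 0.73 ± 0.15 and the hexokinase Hk1 by 0.55 ± 0.12.

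**Figure D3:**
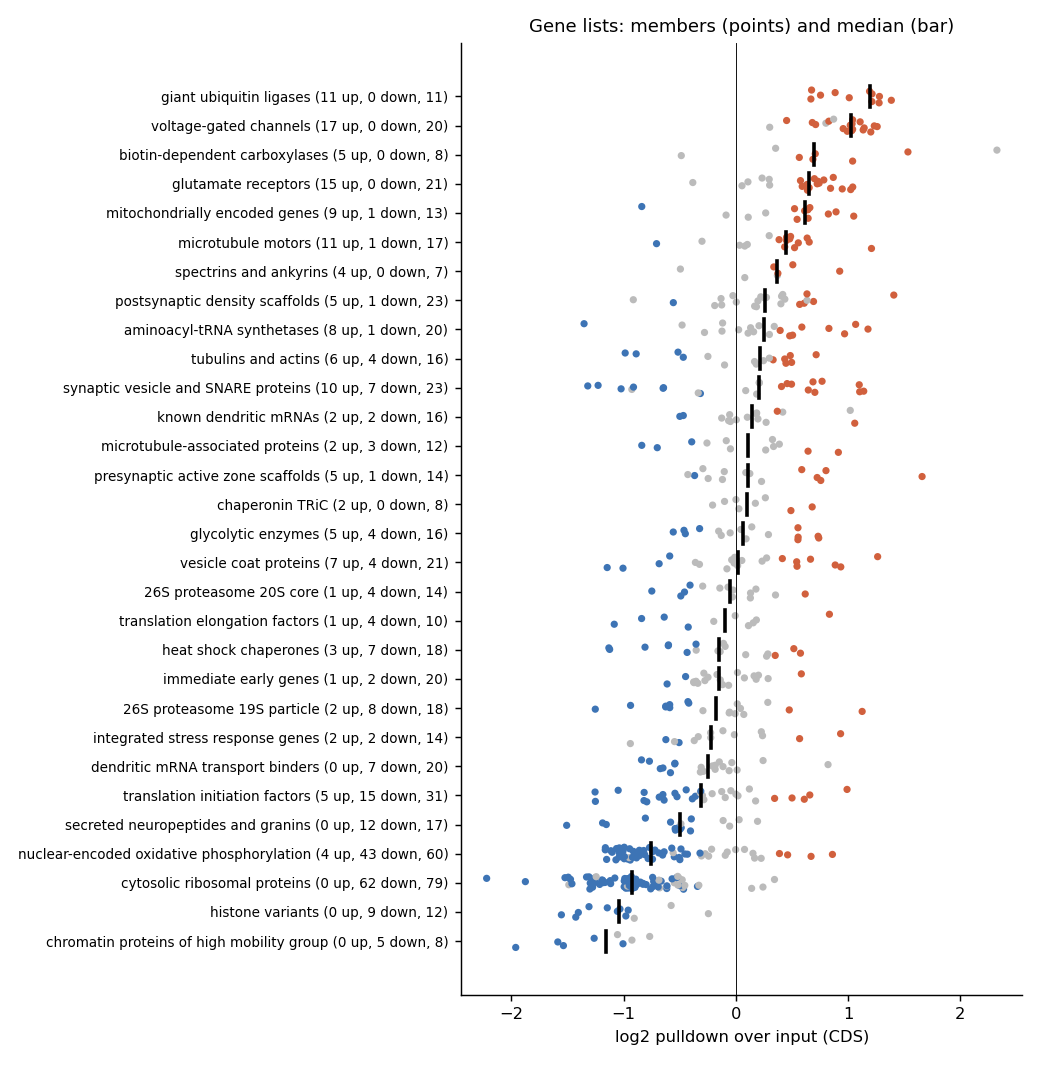
Log2 pulldown over input of CDS footprints (horizontal axis) for the members of 30 gene lists, 1 point per tested gene and a black bar at the list median; orange and blue points are higher and lower genes, grey points did not pass the test, and the labels give higher, lower and tested members. Giant ubiquitin ligases (all 11 higher) and voltage-gated channels (17 of 20) lie at the upper end, ribosomal proteins (62 of 79 lower), histones and high mobility group genes at the lower end.

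Cell type markers went both ways, against 16.3% higher and 15.6% lower over all genes. Sox2 and Nes, transcription factor and intermediate filament of progenitors, were lower. Sox2 was at 97.4, 125 and 123 CPM in the inputs and 15.6, 42.9 and 45.6 CPM in the pulldowns (-1.78 ± 0.24), whereas Top2a, a topoisomerase of dividing cells, rose by 0.91 ± 0.16. The 6 progenitor markers summed to 276 to 435 CPM in the inputs and 189.5 to 331 CPM in the pulldowns, with 1 higher and 2 lower. Of the oligodendrocyte lineage, 7 of 8 markers were tested, 1 rose and 4 fell, among them Olig1 (-1.66 ± 0.22), Sox10 (-2.08 ± 0.41) and Pdgfra (-0.73 ± 0.17). Their sum was 177 to 414.5 CPM in the inputs and 101 to 267.5 CPM in the pulldowns. Astrocyte markers summed to 773 to 1315 CPM and 858 to 1401 CPM, with Slc1a2, a glutamate transporter, rising by 0.50 ± 0.11 and Sox9 and Gfap falling by 0.93 ± 0.20 and 1.30 ± 0.31. The other 5 of 8 did not pass the test, so the called share was near the 31.9% over all genes. Among 7 interneuron markers 2 rose and 4 fell. Gad1, which makes GABA, rose by 0.47 ± 0.11, whereas Dlx2, a transcription factor of the same cells, fell by 1.08 ± 0.19. Excitatory markers had 3 higher and 1 lower of 7, with the vesicular transporter Slc17a7 at 0.50 ± 0.13 and the transcription factor Neurod6 at -0.47 ± 0.17. With the length trend removed, progenitor markers had 1 higher and 3 lower, and the oligodendrocyte lineage 0 higher and 4 lower. Astrocyte markers then had 1 higher and 2 lower, interneuron markers 2 and 3, and excitatory markers 3 and 0. None of the 8 microglial markers passed the filter on low counts. The part of cell type in the changes above was not tested.

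Where on the mRNA the recovered ribosomes sat was asked next. The 5′UTR held 16.5%, 23.6% and 24.1% of the footprints on the chosen transcripts in inputs 1, 2 and 3 and 4.95%, 11.8% and 12.5% in the pulldowns. The groups did not overlap, and the paired differences of -11.6, -11.7 and -11.6 percentage points were nearly the same (mean -11.6 ± 0.086 SD, n = 3 pairs, exact paired permutation test, two-sided p = 0.25, the smallest that 3 pairs allow). The CDS share rose from a mean of 76.9% ± 3.86 to 87.6% ± 3.32 and the 3′UTR share from 1.71% ± 0.34 to 2.67% ± 0.87 (SD, n = 3 libraries each), both in 3 of 3 pairs with the same p. A footprint was assigned by its 5′ end with no offset, so ribosomes on the start codon were counted in the 5′UTR.

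Gene by gene, 5′UTR footprints, scaled by the CDS totals, were tested for 10175 genes. In the pulldown, 4551 were lower (44.7% of those tested) and 1 was higher (0.00983%), and the median was -1.36 on the log2 scale (edgeR quasi-likelihood test). The pair medians were -1.72, -1.08 and -1.09 for replicates 1, 2 and 3, and without replicate 1 the lower genes numbered 963. Among 10057 genes with values for both regions, the 5′UTR lay below the CDS in 93.6%, by a median of 1.33 on the log2 scale. Of 1901 genes with a higher CDS and a tested 5′UTR, 1023 had a lower 5′UTR. The median was -1.48 in 1918 genes with a 5′UTR of up to 100 nt, -1.39 in 4781 genes up to 300 nt and -1.28 in 3476 genes with a longer one. Mettl26 led the lower genes, at 3882, 427 and 658 CPM in the inputs and 323, 95.2 and 205 CPM in the pulldowns (-2.47 ± 0.36). The histone genes Hist1h3g (-2.91 ± 0.46) and Hist1h4h (-2.61 ± 0.42) followed. Rabggtb, a prenyltransferase subunit, was the 1 higher gene, at 6.70, 4.25 and 0.309 CPM in the inputs and 103, 22.4 and 9.89 CPM in the pulldowns (3.46 ± 0.55). Its annotated 5′UTR (chromosome 3, 153912060 to 153912311) contains the small nucleolar RNA gene Snord45c (153912125 to 153912204, same strand), and reads of the 2 cannot be told apart.

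Footprints also lay further along the CDS in the pulldown. The CDS was divided into 3 parts by length, and each CDS segment was placed whole in the part that held its midpoint. The parts of a gene can therefore differ in length. For 6268 genes with at least 3 CDS segments and 20 counts in the first and last part together in each library, the median log2 ratio of last to first part was -0.35, -0.86 and -1.43 in inputs 1, 2 and 3. In the pulldowns it was 0.86, 0.25 and -0.14. The groups did not overlap, and each pair moved toward the 3′ end by 1.21, 1.11 and 1.29 (mean 1.20 ± 0.087 SD, exact paired permutation test, two-sided p = 0.25). Ratios ran in the same order over the cultures in both fractions, highest in replicate 1. In 74.9% of the genes the ratio was higher in 3 of 3 pairs and in 1.34% lower in all 3. With these genes divided into 3 classes by CDS length, the shift was 1.20 ± 0.23 in the shortest, 1.32 ± 0.12 in the middle and 1.11 ± 0.12 in the longest class (SD, n = 3 pairs).

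**Figure D4:**
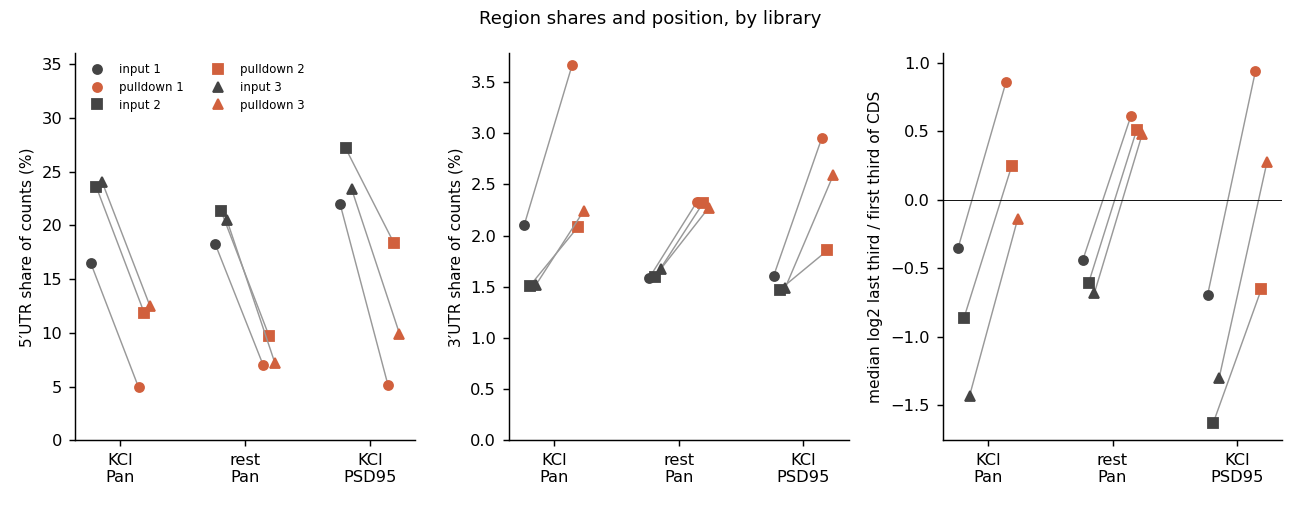
Share of footprints in the 5′UTR and 3′UTR (%) and median log2 ratio of the last to the first of 3 CDS parts (whole segments placed by midpoint), by library. Groups are depolarized (KCl) Pan-TurboID, resting Pan-TurboID and depolarized TurboID-PSD95. Grey symbols are inputs, orange symbols pulldowns, and lines join the fractions of a culture. In depolarized Pan-TurboID the 5′UTR share falls in each pair by 11.6 to 11.7 points and the CDS ratio rises by 1.11 to 1.29.

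Whether these changes were particular to depolarized cells or to the unlocalized ligase was tested as a difference between pulldown effects. In resting Pan-TurboID cultures, 2000 genes were higher and 2275 lower (32.9% of those tested), and in depolarized TurboID-PSD95 cultures 2232 and 2262 (34.6%). Of the depolarized Pan-TurboID genes, 1555 of the higher were also higher at rest, which is 73.2% of the depolarized and 77.8% of the resting list. For the lower genes it was 1583, or 78.0% and 69.6%. With TurboID-PSD95, 1648 higher genes (77.6% and 73.8%) and 1537 lower genes (75.8% and 67.9%) were shared. No gene was called in opposite directions. Pearson's r of the log2 fold changes across 13002 genes (without Dlg4) was 0.688 with rest and 0.654 with TurboID-PSD95, and 0.912 and 0.9 over the 7663 genes with a mean log2 CPM of at least 4. These are correlations over genes from separate libraries.

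No gene differed between depolarized and resting Pan-TurboID (0.0% of 13003 by edgeR's quasi-likelihood test at FDR below 0.05, 329 at an unadjusted p under 0.05; 1 by the likelihood ratio test and 0 by DESeq2). The median SE of these differences was 0.353 on the log2 scale. A pulldown effect shared by the resting and depolarized cultures of a replicate number was not modelled. The smallest p belonged to Actc1, cardiac actin, with -0.55 depolarized and -1.98 at rest (difference 1.43 ± 0.38, edgeR FDR = 0.9993). Col24a1, a collagen, was second at 0, 2.48 and 0.309 CPM in the inputs and 0, 0.385 and 0 CPM in the pulldowns, too few counts for a fold change. Between Pan-TurboID and TurboID-PSD95, both depolarized, 1 gene differed (0.00769% of those tested, 489 at an unadjusted p under 0.05). It was Dlg4 (chromosome 11, 70018920 to 70031833), at 54.6, 120 and 192 CPM in the TurboID-PSD95 inputs and 350, 1440 and 5330 CPM in the pulldowns. The difference of -3.89 ± 0.39 (edgeR FDR = 0.000287) concerns the gene that encodes PSD95. The TurboID-PSD95 construct carries a PSD95 coding sequence amplified from rat and UTR elements of PSD95. Reads of the construct and of the cells' own mRNA were not separated here. The next smallest p-values belonged to Prpf4b, a splicing kinase, and Psmc5. Prpf4b was at 0.10 with Pan-TurboID and 1.47 with TurboID-PSD95 (difference -1.37 ± 0.30, edgeR FDR = 0.9997), and was called by DESeq2 and without the filter on low counts. Psmc5 was at 1.12 with Pan-TurboID and 0.17 with TurboID-PSD95 and did not pass that test (difference 0.95 ± 0.23, edgeR FDR = 0.9997), though it was called without the filter. Without replicate 1, Dlg1, a relative of Dlg4, was also called (-2.06 ± 0.34, edgeR FDR = 0.00254). Loss of 5′UTR footprints was also seen in both, with medians of -1.51 at rest (57.1% lower, 0.0295% higher) and -1.42 with TurboID-PSD95 (46.6% called, 46.5% lower and 0.0295% higher), and no gene's 5′UTR differed between experiments (edgeR, 93 and 130 genes at an unadjusted p under 0.05). The 5′UTR share fell by 12.1 ± 1.1 percentage points at rest and by 13.0 ± 4.1 with TurboID-PSD95, and the ratio of last to first CDS part rose by 1.11 ± 0.058 and 1.40 ± 0.37 (SD, n = 3 pairs each). In the shortest decile by CDS, the medians were -0.93 at rest and -0.92 with TurboID-PSD95, and in the longest decile 0.38 and 0.56.

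**Figure D5:**
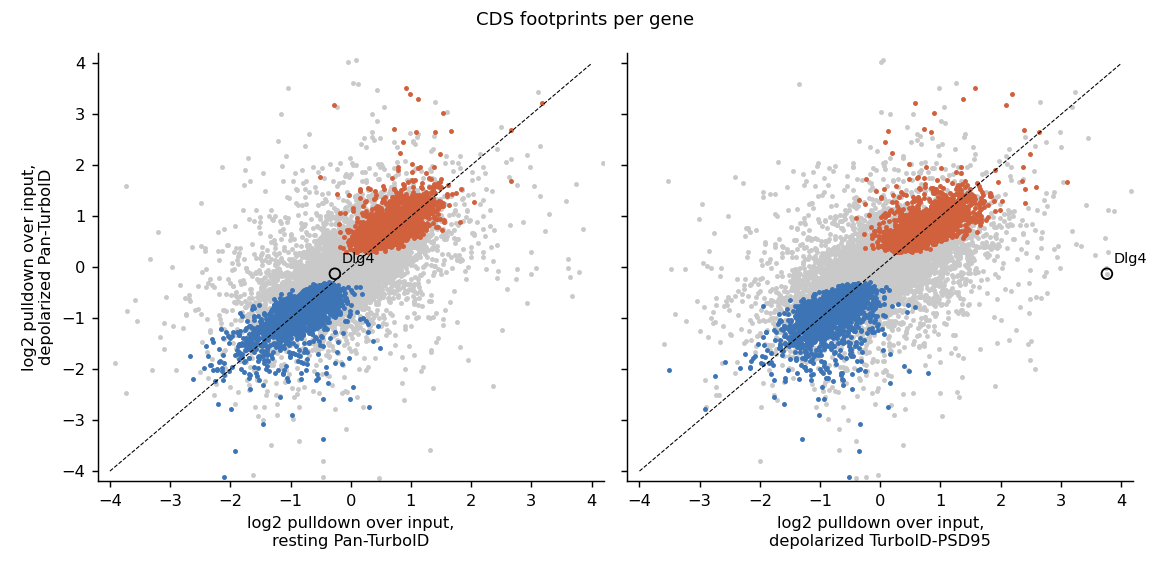
Log2 pulldown over input of CDS footprints per gene in depolarized Pan-TurboID (vertical axis) against resting Pan-TurboID (left) and depolarized TurboID-PSD95 (right); orange and blue mark genes higher and lower in depolarized Pan-TurboID, grey the uncalled, the dashed line equal values, with 15 and 28 genes outside the axes. Most called genes lie in the same quadrant in both panels, and Dlg4 stands apart on the right at -0.13 against 3.76.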

How the data were processed

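Ribosome footprints of 38 libraries in 14 groups were deposited, and 24 libraries from 12 cultures (resting or KCl, Pan-TurboID or TurboID-PSD95, input and pulldown) entered the fits here. The deposited files hold raw counts, made by the authors with plastid's region counter from alignments to mm10 (Rsubread, with trimming by Rfastp, unique molecular identifiers cut and, by the alignment name, rRNA and duplicates removed). Per the file headers, a footprint of 25 to 100 nt was counted by its 5′ end, with no offset, in each CDS, 5′UTR and 3′UTR segment. Use of strand and of multiply mapped reads is not given in the sources used here, so overlapping and duplicated genes are uncertain.

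Counts were summed over the segments of the longest transcript of each gene, with symbols from GENCODE M21 (66750 of 67238 coding transcripts matched, 22443 genes). Genes were filtered with filterByExpr, scaled by TMM and tested with edgeR 4.0.16 (quasi-likelihood, robust) with a term for each culture and a pulldown effect for each of the 4 experiments, and p-values were adjusted by Benjamini-Hochberg at 0.05. Values with ± are log2 fold changes with SE unless stated. The cultures pair the fractions by design, since both come from 1 monosome fraction. Deviations from the group means correlated at 0.326, 0.254 and 0.419 within replicates 1, 2 and 3. No 2 libraries of a group agreed within sampling noise. Shares are 1 value per library, tested by exact paired permutation. The fit was tested on simulated data of this design. Part of the changes put into these data was not recovered, more so for differences between depolarized and resting cultures. The study describes the 3 replicates as biologically independent. It also reports that resting and activated samples of a replicate were processed at the same time. The fit has no term for a pulldown effect shared by the cultures of a replicate number.

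Members, gene lists and tests were chosen with earlier results of these data known. Named were, in either direction, the 10 genes of lowest p that moved alike in all 3 pairs, up to 4 called members per list, 7 genes in every case, and the leading genes of the differences and of the 5′UTR test. DESeq2 1.42.0 and other settings are given in the closing section. No library of the series was labelled as made without a ligase, so none was set against the pulldowns. Some items are not reported here.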

Additional observations from a re-analysis of the deposited data

Results flagged for a closer look

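The CDS effect of Dlg4 differed between the Pan-TurboID and the TurboID-PSD95 pulldowns of depolarized cultures, by -3.89 ± 0.39 on the log2 scale in a test of the difference itself (edgeR FDR = 0.000287). Without replicate 2 the difference was as large, -4.01 ± 0.63, and did not pass the threshold (edgeR FDR = 0.699). The TurboID-PSD95 construct carries PSD95 sequence, and its reads were not separated from those of the cells' own Dlg4 mRNA.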

How the results depend on the processing

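The counts of 2123 higher and 2029 lower CDS genes moved to 667 and 471 without the replicate block, and 5′UTR calls to 0 higher and 834 lower, list members called from 367 to 121, and the difference of Dlg4 from 1 call to 0 at a value as large (-4.39 ± 0.91). Leaving out 1 replicate at a time gave 1522 to 1623 higher and 1168 to 1519 lower CDS genes, 963 to 3026 lower and 1 higher 5′UTR genes and 290 to 297 list members. It gave 0 calls against rest in either direction and 0 to 2 lower and 0 higher against TurboID-PSD95. The paired differences ranged from -11.66 to -11.59 points (5′UTR share), 10.44 to 11 (CDS share) and 0.6488 to 1.144 (3′UTR share), and from 1.163 to 1.249 for the ratio of last to first CDS part. With the CDS length trend removed, 242 list members were called. Against rest, the likelihood ratio test called 1 lower gene (Col24a1, edgeR FDR = 0.0135). Against TurboID-PSD95, no filter on low counts gave 1 higher and 2 lower genes, and DESeq2 gave 2 lower. Higher 5′UTR genes numbered 5 by the likelihood ratio test, 3 by DESeq2 and 2 with the libraries of the comparison alone. Among named genes, Dlg4 turned to 0.00054 with the transcript of highest count and to 0.15 with the length trend removed, where Ank2 was at -0.32 and Kmt2d at -0.37. Leaving out 1 replicate, the uncalled genes changed sign, over -0.18 to 0.035 for Arc (positive without replicate 2), -0.25 to 0.031 for Fos and -0.12 to 0.077 for Map2 (both positive without replicate 1). Other size factors, DESeq2, the likelihood ratio test and no filter kept the CDS counts between 2113 and 2385 higher and 2074 and 2369 lower. Apart from the removal of the block and of the length trend, whose construction uses fewer terms or another offset, the cause was not tested.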
